A study of Homo sapiens with 18 samples.

Results

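The genes described here were 43 human genes of the G1/S transition and of DNA replication. They were listed by function, but with earlier results of these data already known. They were matched by symbol to Ensembl identifiers in count tables of 63677 gene identifiers. Of the 43, 42 were matched and have values, and UHRF1 was not matched. All 42 passed the filter on low counts that kept 21028 genes, and the counts of a member in a library lay between 66 (E2F2) and 35457 (CCND1). The cells were PANC1, COLO357 and SUIT2, established human lines of pancreatic ductal adenocarcinoma, transfected for 48 h with small interfering RNAs (siRNAs), short duplexes that direct degradation of a matching mRNA. Each line gave 3 libraries with KMT2C siRNA (siRNA1, siRNA2 and siRNA3, which are different siRNAs), 2 with KMT2D siRNA (siRNA1 and siRNA2) and 1 with control siRNA, which makes 9, 6 and 3 libraries and 18 in all. KMT2C and KMT2D are related histone methyltransferases best known for marking enhancers, and the study compared transcriptomes after depletion of either. The depletion was transient and partial, no library came from cells with a deleted allele, and nothing in the labels says that libraries of a line came from separate cultures. The p-values below therefore measure the spread between these libraries, part of which may be technical. In the comparisons of targets and of lines this spread also holds differences between the siRNAs of a target, since no siRNA was repeated within a line.

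Cells enter S phase when cyclin D and cyclin E kinases inactivate the retinoblastoma proteins and release the E2F transcription factors. E2F factors then drive the genes for origin licensing, for the replicative helicase, for DNA polymerases and for deoxynucleotide synthesis, so that these RNAs are most abundant late in G1 and in S phase. Many pancreatic ductal adenocarcinomas lose the CDK inhibitor p16, which lies upstream of this step. In RNA from a whole culture, fewer cells in S phase and less of an RNA per cell cannot be told apart.

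Library depth was 14205640 to 32115894 read pairs assigned to genes. The share of read pairs in no annotated feature was 8.90% to 30.36% in the KMT2C libraries, 8.65% to 13.25% in the KMT2D libraries and 7.49% to 16.46% in the control libraries, and it passed 20% in 3 KMT2C libraries (siRNA2 and siRNA3 in SUIT2, and siRNA3 in COLO357). KMT2C RNA (ENSG00000055609) in the 9 KMT2C libraries was 43.3% to 116% of the same line's control, with a median of 64.2%. KMT2D RNA (ENSG00000167548) in the 6 KMT2D libraries was 34.9% to 84.8% of control, with a median of 55.8%. In the library labelled PANC1 KMT2C siRNA2, KMT2C was at 116% and KMT2D at 371% of the control, so the level of the targeted RNA goes against that label. In it GINS1, FEN1, E2F3 and MCM7, which differed among the KMT2C siRNAs (below), were at 15.91%, 22.15%, 47.88% and 38.44% of control. With KMT2C siRNA2 they were at 28.98%, 53.28%, 60.98% and 67.25% in COLO357, and at 22.02%, 31.36%, 48.34% and 49.74% in SUIT2. In PANC1 they were at 95.79%, 79.01%, 103.4% and 66.44% with KMT2C siRNA1, and at 92.51%, 74.09%, 102.5% and 79.23% with siRNA3. That library helped choose these genes, and its label was not tested. The 2 PANC1 KMT2D libraries (siRNA1 and siRNA2) kept 80.0% and 84.8% of KMT2D RNA, with KMT2C RNA at 138% and 273% of control. With edgeR's quasi-likelihood test over all 18 libraries, neither KMT2C under KMT2C siRNA (log2 fold change -0.58, adjusted p = 0.437) nor KMT2D under KMT2D siRNA (-0.83, adjusted p = 0.211) passed an adjusted p of 0.05. Of the single siRNAs, KMT2C siRNA1 alone lowered its own target with a call (KMT2C -0.99, adjusted p = 0.0148 by edgeR). The other target was called higher with KMT2C siRNA2 (KMT2D 1.02, adjusted p = 0.0401) and with KMT2D siRNA2 (KMT2C 0.72, adjusted p = 0.0291). All 6 epithelial markers were above 1 CPM (counts scaled to the library size) in every line. Their sum in SUIT2 was 2933 to 4804 CPM in KMT2C libraries, 5910 to 6562 CPM in KMT2D libraries and 6839 CPM in the control. Of these markers KRT7 fell with KMT2D siRNA1 (log2 fold change -0.96, adjusted p = 0.0221 by edgeR) and was higher with KMT2D siRNA2 than with siRNA1 (0.73, adjusted p = 0.0489). None of the other epithelial markers was called in either comparison, and with KMT2D siRNA1 they lay between -0.29 (KRT19) and 0.08 (EPCAM). The leukocyte markers PTPRC, CD3E, CD14 and CD68 stayed under 1 CPM in every line, as did the 4 endothelial markers apart from CDH5 in COLO357. CDH5 was higher with KMT2C siRNA1 than with control siRNA (log2 fold change 2.07, adjusted p = 0.0406 by edgeR) and differed between the targets (KMT2C over KMT2D siRNA 1.93, adjusted p = 0.00977), with endothelial sums in COLO357 of 13.9 to 28.3 CPM in KMT2C libraries, 4.73 to 5.16 CPM in KMT2D libraries and 6.13 CPM in the control. Fibroblast marker sums were 2.45 to 150 CPM in KMT2C libraries, 1.23 to 180 CPM in KMT2D libraries and 2.55 to 59.5 CPM in control libraries, nearly all of it COL1A1, with DCN and LUM under 1 CPM in every line. The part of these markers in the values below was not tested.

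KMT2D siRNA against control siRNA lowered 4 of the 42 genes across the 3 lines and raised none. They were 2 of the 11 polymerase and fork genes, 1 of the 6 helicase activation genes and the checkpoint gene CLSPN. POLE, the catalytic subunit of the leading-strand polymerase epsilon, was 0.69 lower on the log2 scale (SE 0.12, adjusted p = 0.0047), and POLA1, the catalytic subunit of the polymerase alpha-primase that starts each new strand, fell by 1.07 (SE 0.21, adjusted p = 0.0118). CLSPN encodes claspin, which couples the fork to the checkpoint kinase CHK1, and fell by 0.80 (SE 0.16, adjusted p = 0.015). CDC45, a subunit of the replicative CMG helicase, fell by 0.81 (SE 0.17, adjusted p = 0.015). The values are edgeR's quasi-likelihood test with cell line as a term, 6 libraries against 3, and Benjamini-Hochberg adjustment over all genes tested. Over all genes, 1.2% were called in this comparison, 0.504% lower and 0.699% higher. A further 33 members had fold changes below 0 without passing the threshold, so that 37 of 42 lay below 0, and the median was -0.37 over the members and 0.02 over all genes. At an unadjusted p under 0.05 the members numbered 20 of 42, and all genes 2651 of 21028.

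The 4 genes were low in each KMT2D library of each line. POLE (ENSG00000177084) had 70.2 and 88.3 CPM in the SUIT2 libraries of KMT2D siRNA1 and siRNA2, and 136 CPM in the control library. In COLO357 it had 63.2 and 61.8 CPM with KMT2D siRNA, against 97.2 CPM with control siRNA, and in PANC1 89.9 and 91.3 CPM, against 142 CPM. Every KMT2D library thus lay at 51.8% to 65.1% of its own control. POLA1 (ENSG00000101868) had 22.8 (siRNA1) and 55.4 CPM (siRNA2) in the KMT2D libraries of SUIT2, against 76.8 CPM with control siRNA, and 34.1 and 49.6 CPM in COLO357, against 83.8 CPM. In PANC1 it had 13.7 and 21.8 CPM with KMT2D siRNA, against 41.5 CPM with control siRNA. POLA1 was lower with siRNA1 than with siRNA2 in each line, and its KMT2D libraries spread from 29.8% to 72.2% of control.

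CLSPN (ENSG00000092853) had 65.8 (siRNA1) and 116 CPM (siRNA2) in the KMT2D libraries of SUIT2, against 163 CPM with control siRNA. In COLO357 the KMT2D libraries had 89.3 and 86.0 CPM, against 133 CPM, and in PANC1 117 and 138 CPM, against 245 CPM. Its KMT2D libraries lay at 40.5% to 71.1% of control. CDC45 (ENSG00000093009) had 31.4 (siRNA1) and 42.4 CPM (siRNA2) in the KMT2D libraries of SUIT2, against 62.2 CPM with control siRNA. In COLO357 it had 55.2 and 49.2 CPM, against 79.5 CPM, and in PANC1 23.1 and 25.2 CPM, against 51.2 CPM. For both genes the KMT2D and control libraries did not overlap within any line. These calls depended on the control libraries: without the SUIT2 control none of the 4 passed (adjusted p 0.0793 to 0.0964), without the PANC1 control POLE alone passed, and without the COLO357 control POLE and CLSPN passed. Fitted on the 9 libraries of these groups alone, each of the 4 missed the threshold (adjusted p 0.0858 to 0.159, with log2 fold changes of -0.68 to -1.06), and with each siRNA as a block (limma-voom) CLSPN (adjusted p = 0.0657) and CDC45 (adjusted p = 0.099) missed it.

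**Figure D1:**
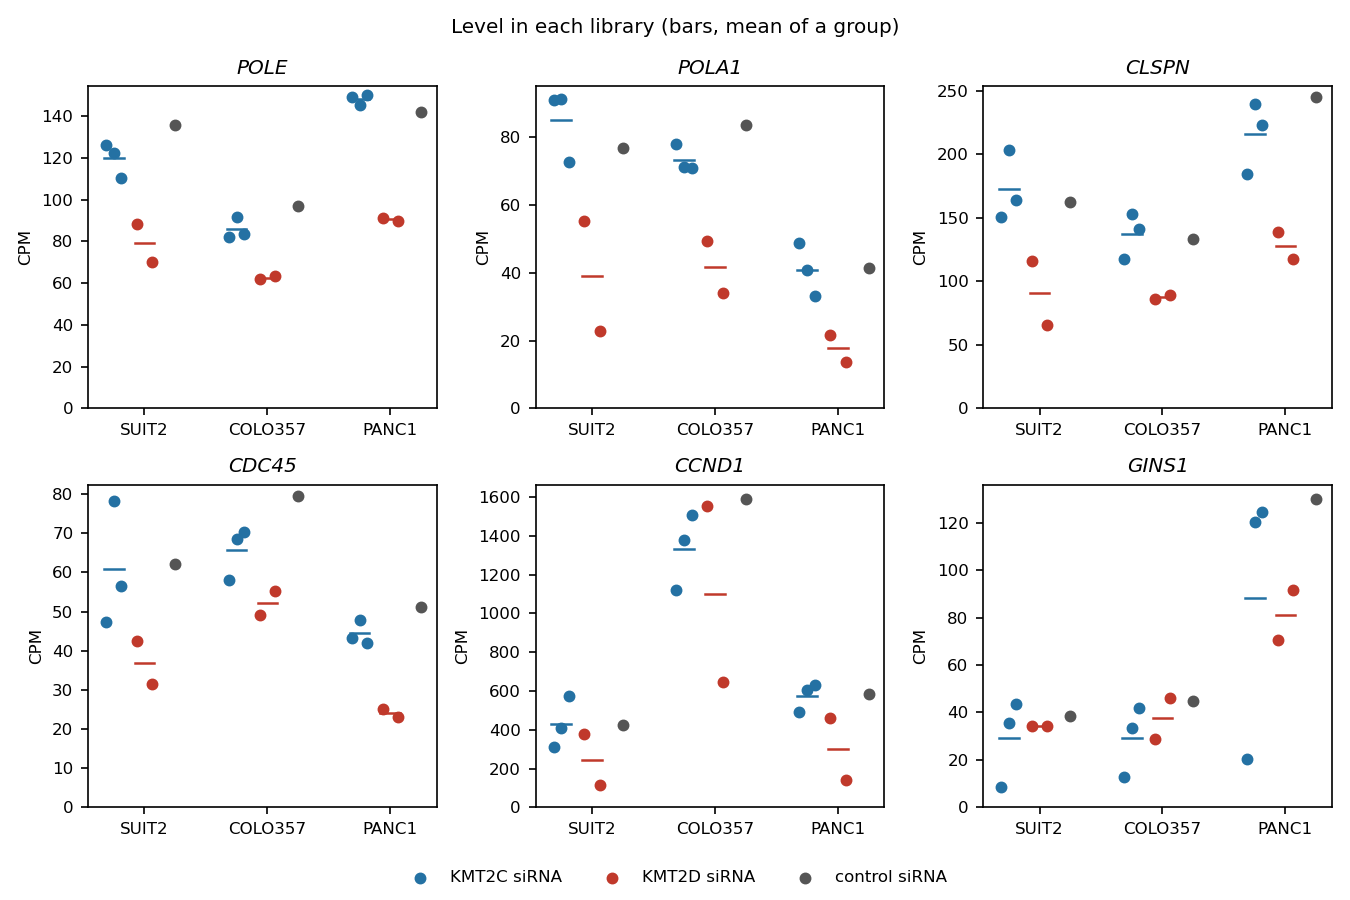
Level (CPM, linear axis from 0) of POLE, POLA1, CLSPN, CDC45, CCND1 and GINS1 in each library, by cell line, with KMT2C siRNA, KMT2D siRNA and control siRNA from left to right and a bar at the mean of each group of libraries. The KMT2D points of POLE lie at 51.8% to 65.1% of the control point of their line, 1 of 2 KMT2D points is low for CCND1, and 1 of 3 KMT2C points is low for GINS1.

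The promoters of the 4 called genes, and of the 2 members of the promoter table with the largest p in this comparison (E2F2 and ORC6), are printed so that the letters behind the motif counts can be read. Each run is the 250 bases before the RefSeq transcription start in GRCh38.p14, 5′ to 3′ on the gene's strand, with matches to the E2F letters (TTTCGCGC or TTTGGCGC) and to CCAAT on either strand in capitals. The windows are chr12:132687343-132687592 (minus strand) for POLE, chrX:24693668-24693917 (plus strand) for POLA1, chr1:35769979-35770228 (minus strand) for CLSPN, chr22:19479670-19479919 (plus strand) for CDC45, chr1:23531234-23531483 (minus strand) for E2F2 and chr16:46689409-46689658 (plus strand) for ORC6.
POLE: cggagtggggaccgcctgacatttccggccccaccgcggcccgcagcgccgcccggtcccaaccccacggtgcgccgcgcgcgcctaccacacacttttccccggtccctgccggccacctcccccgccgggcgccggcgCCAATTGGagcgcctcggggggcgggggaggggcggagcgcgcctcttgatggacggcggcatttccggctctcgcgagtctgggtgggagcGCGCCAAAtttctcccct
POLA1: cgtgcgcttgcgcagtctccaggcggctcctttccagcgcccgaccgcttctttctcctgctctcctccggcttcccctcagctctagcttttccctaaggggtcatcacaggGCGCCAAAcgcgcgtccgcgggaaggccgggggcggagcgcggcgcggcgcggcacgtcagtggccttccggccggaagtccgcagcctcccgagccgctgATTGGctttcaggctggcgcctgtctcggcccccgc
CLSPN: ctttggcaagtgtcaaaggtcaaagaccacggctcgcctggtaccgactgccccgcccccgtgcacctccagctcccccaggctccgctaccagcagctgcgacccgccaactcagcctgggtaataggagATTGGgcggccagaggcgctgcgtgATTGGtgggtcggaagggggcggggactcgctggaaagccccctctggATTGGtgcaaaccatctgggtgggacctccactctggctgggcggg
CDC45: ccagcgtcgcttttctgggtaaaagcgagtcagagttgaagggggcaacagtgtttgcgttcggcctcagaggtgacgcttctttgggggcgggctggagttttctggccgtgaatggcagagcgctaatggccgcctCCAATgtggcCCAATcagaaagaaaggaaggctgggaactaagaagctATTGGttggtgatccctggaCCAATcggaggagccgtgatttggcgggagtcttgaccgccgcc
E2F2: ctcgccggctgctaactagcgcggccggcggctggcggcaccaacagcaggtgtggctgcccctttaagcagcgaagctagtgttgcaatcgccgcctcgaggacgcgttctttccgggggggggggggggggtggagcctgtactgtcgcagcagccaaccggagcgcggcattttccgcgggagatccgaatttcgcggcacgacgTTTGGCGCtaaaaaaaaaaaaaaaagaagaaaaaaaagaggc
ORC6: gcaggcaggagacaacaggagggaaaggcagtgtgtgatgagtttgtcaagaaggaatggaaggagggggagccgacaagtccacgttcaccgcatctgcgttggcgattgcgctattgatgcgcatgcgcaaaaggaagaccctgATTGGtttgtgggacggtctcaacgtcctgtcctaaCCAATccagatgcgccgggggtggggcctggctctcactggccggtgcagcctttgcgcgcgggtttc
POLE and POLA1 each held 1 E2F match beside CCAAT matches. CLSPN held 3 CCAAT matches and CDC45 held 4, with no match to the E2F letters in either. Other forms of the E2F site were not searched for, so their absence is not shown. Of the members with the largest p, E2F2 held 1 E2F match and no CCAAT, and ORC6 held 2 CCAAT matches and no E2F match.

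RefSeq windows of 300 bases, from 250 before to 50 after the start, were found for 37 of the 43 genes, and not for CCND1, CCNE2, E2F8, MCM4, MCM5 and GINS4. The E2F letters were in the windows of 14 of the 37 members (37.8%) and of 382 of all 27305 genes in the table (1.4%). The 14 were CDC25A, CDC6, E2F1, E2F2, GINS1, MCM2, MCM3, MCM6, MCM7, POLA1, POLA2, POLE, POLE2 and UHRF1. CCAAT, the letters bound by NF-Y, was in 24 of 37 member windows (64.9%) and in 39.7% of all genes. The cell cycle homology letters TTTGAA or TTTAAA were in 6 of 37 (16.2%), against 27.9% of all genes, and the E-box CACGTG was in 4 of 37 (10.8%), against 8.8%. None of these motifs contains another, and a match is a run of letters and not a measured binding site. E2F matches stood in promoters of members that were called under KMT2D siRNA (POLE, POLA1) and of members near 0 (E2F2, MCM6, with log2 fold changes of 0.04 and -0.09).

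The other members are given by role, as a percentage of the same line's control CPM over the 6 KMT2D libraries (lowest, median and highest) and as log2 fold changes over the 3 lines. None of them passed the threshold. Among the cyclins, CCND1 (ENSG00000110092), the D-type cyclin that activates CDK4 and CDK6, was at 24.6%, 59.8% and 97.7% of control (-0.75, SE 0.35, adjusted p = 0.395). The 3 siRNA1 libraries were the low ones, so its libraries fell into separate ranges by siRNA. CCND3 (ENSG00000112576), another D-type cyclin, was at 103%, 149% and 264% of control (0.62, SE 0.19, adjusted p = 0.126), and it was the only member above control in all 6 KMT2D libraries. CCNE1 (ENSG00000105173), the cyclin E that activates CDK2, was at 64.7%, 96.1% and 128% (-0.10, SE 0.22). CCNE2, the other cyclin E, and CDC25A, the phosphatase that activates CDK2, had log2 fold changes of 0.01 and -0.43.

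Among the E2F factors, E2F1 (ENSG00000101412), an activator, was at 50.3%, 68.0% and 105% of control (-0.48, SE 0.19, adjusted p = 0.28). E2F8 (ENSG00000129173), a repressor that acts with E2F7, was at 59.5%, 66.2% and 122% (-0.42, SE 0.21, adjusted p = 0.411). For each of these 2 genes 5 of the 6 KMT2D libraries lay below control and SUIT2 KMT2D siRNA2 above it. The activators E2F2 and E2F3 and the repressor E2F7 had log2 fold changes of 0.04, -0.16 and -0.18.

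Origin licensing loads the MCM2 to MCM7 helicase ring onto DNA with ORC, CDC6 and CDT1. CDC6 (ENSG00000094804) was at 28.6%, 61.3% and 84.3% of control (-0.74, SE 0.21, adjusted p = 0.0958), and MCM5 (ENSG00000100297) at 54.4%, 67.9% and 85.1% (-0.55, SE 0.16, adjusted p = 0.101). Both lay below control in all 6 KMT2D libraries. MCM2 (ENSG00000073111), another subunit of the ring, was at 62.3%, 92.4% and 102% (-0.17, SE 0.15, adjusted p = 0.703), below control in 5 of 6 libraries. The other subunits had log2 fold changes of -0.38 (MCM3), -0.34 (MCM4), -0.09 (MCM6) and -0.53 (MCM7). The origin recognition subunits ORC1 and ORC6 were at -0.39 and -0.04, and CDT1 was at 0.15.

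In helicase activation, GINS4 (ENSG00000147536), a subunit of the GINS complex that joins CDC45 and the MCM ring, was at 51.0%, 64.2% and 77.7% of control (-0.63, SE 0.17, adjusted p = 0.0686). Its fellow subunits GINS1, GINS2 and GINS3 had log2 fold changes of -0.37, -0.07 and 0.22, and MCM10, an origin firing factor, had -0.77 (SE 0.21, adjusted p = 0.0745). GINS4 was thus below control in all 6 libraries, while GINS2 and GINS3 were below it in 3 of 6. Among the fork proteins, all 11 members had values below 0. PCNA (ENSG00000132646), the sliding clamp, was at 36.8%, 68.3% and 98.1% of control (-0.55, SE 0.22, adjusted p = 0.295). PRIM1, the primase, and POLA2, the regulatory subunit of polymerase alpha, had -0.64 and -0.58 (adjusted p = 0.102 and 0.111). POLE2, a second subunit of polymerase epsilon, had -0.47, and POLD1, the catalytic subunit of polymerase delta, -0.20. The clamp loader subunits RFC3 and RFC4 had -0.34 and -0.14, and FEN1 and LIG1, which process and join Okazaki fragments, -0.41 and -0.21.

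In nucleotide supply, RRM2 (ENSG00000171848), the small subunit of ribonucleotide reductase, was at 47.1%, 68.4% and 83.9% of control (-0.58, SE 0.16, adjusted p = 0.0889). TYMS (ENSG00000176890), thymidylate synthase, was at 63.2%, 67.5% and 117% (-0.32, SE 0.21, adjusted p = 0.573). RRM1, the large reductase subunit, and TK1, thymidine kinase, had -0.23 and -0.07. RRM2 lay below control in all 6 KMT2D libraries and TYMS in 4 of 6. In the annotation, exons of RRM2, POLA2 and PRIM1 overlap another gene on the same strand. Exons of CCND1, CCNE2, MCM2, GINS3, GINS4 and TYMS overlap one on the opposite strand. Whether the counting used strand is not stated, so the reads of these genes are uncertain.

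**Figure D2:**
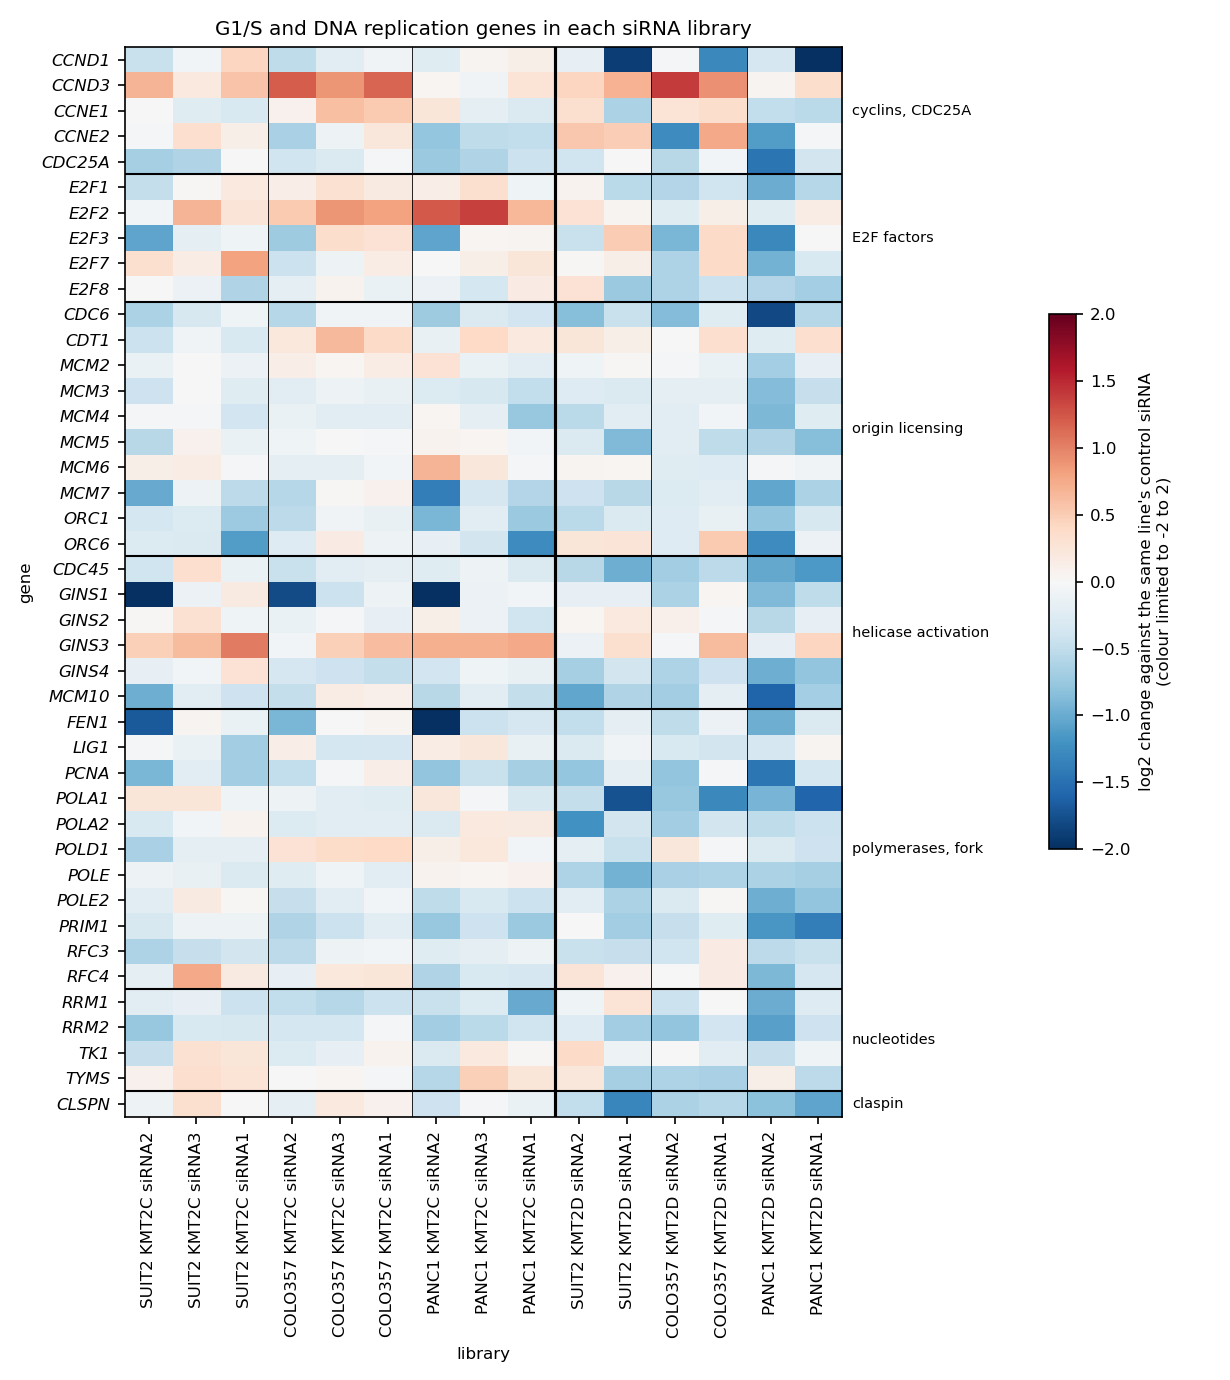
Log2 change of the 42 members (rows, by role) against the same line's control siRNA library in 9 KMT2C libraries and 6 KMT2D libraries (columns, split by the thick line), with colours limited to -2 and 2. CDC45, POLA1, POLE and CLSPN are blue in all 6 KMT2D libraries, GINS1 is dark blue in the 3 libraries of KMT2C siRNA2, and FEN1 is blue in the same 3.

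Counted over libraries, 18 members lay below their own control in all 6 KMT2D libraries, as did 6.33% of all genes tested, and CCND3 lay above it in all 6, as did 7.1% of all genes. The 18 were CCND1, ORC1, CDC6, MCM3, MCM4, MCM5, MCM7, MCM10, CDC45, GINS4, POLA1, POLA2, PRIM1, POLE, PCNA, FEN1, RRM2 and CLSPN. The median member change per library was -0.29 (siRNA1) and -0.19 (siRNA2) in the KMT2D libraries of SUIT2, -0.14 and -0.42 in COLO357, and -0.42 and -0.88 in PANC1. All 6 medians were below 0, and the median of all genes in the same libraries was at most 0.0137 from 0. The lowest median was that of PANC1 KMT2D siRNA2, where 40 of 42 members and 48.3% of all genes were below control. In that library KMT2D RNA was at 84.8% and KMT2C RNA at 273% of control.

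**Figure D3:**
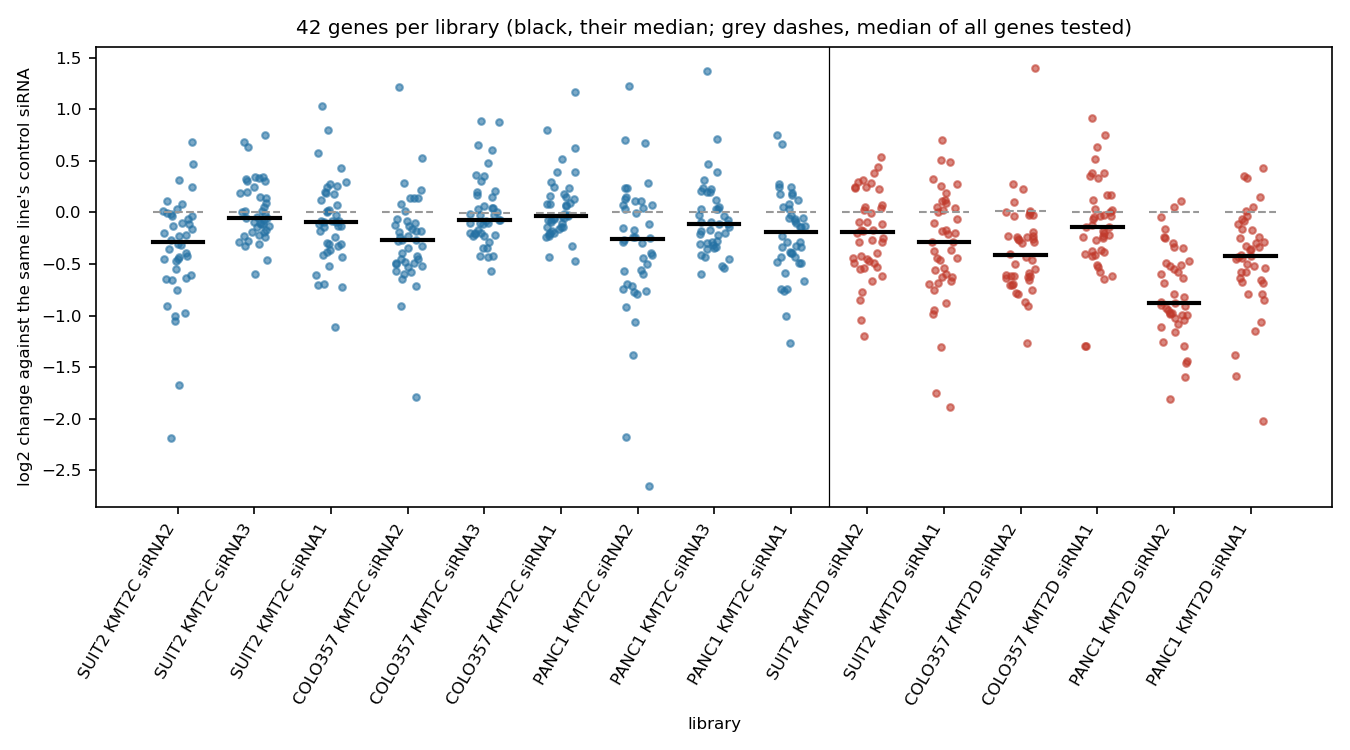
Log2 change of each of the 42 members (points) against the same line's control siRNA in each KMT2C library and KMT2D library, with the members' median (black bar) and the median of all genes tested (grey dashes). The members' medians run from -0.29 to -0.03 in the 9 KMT2C libraries and from -0.88 to -0.14 in the 6 KMT2D libraries.

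KMT2C siRNA against control siRNA gave no called member. With edgeR's quasi-likelihood test, 0 of 42 members passed, 10 had an unadjusted p under 0.05, as did 1930 of all 21028 genes, and DESeq2 also called 0 members. Over all genes 0.281% were called, 0.0143% lower and 0.266% higher. The members' median was -0.12, against 0.00 over all genes, and 31 of 42 lay below 0. The comparison shares its 3 control libraries with that of KMT2D siRNA, so the 2 sets of values are not independent. The smallest p was that of E2F2, which averaged 0.75 higher on the log2 scale (SE 0.23, adjusted p = 0.25). It had 5.49, 4.40 and 7.41 CPM in SUIT2 with KMT2C siRNA1, siRNA2 and siRNA3, against 4.59 CPM with control siRNA. In COLO357 it had 29.8, 24.7 and 31.7 CPM with KMT2C siRNA, against 17.1 CPM, and in PANC1 9.50, 14.0 and 15.6 CPM, against 5.96 CPM. The KMT2C and control libraries were apart in COLO357 and PANC1 and overlapped in SUIT2.

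GINS3 and CCND3 had log2 fold changes of 0.62 and 0.52 with KMT2C siRNA (adjusted p = 0.339 and 0.345). The lowest were GINS1 at -0.52 and FEN1 at -0.48, with wide errors (SE 0.45 and 0.33). The 4 genes called under KMT2D siRNA had -0.10 (POLE), -0.02 (POLA1), -0.02 (CLSPN) and -0.17 (CDC45) under KMT2C siRNA, and as a percentage of control their 9 libraries had medians of 93.0%, 94.6%, 97.8% and 86.2%. Of the 9 KMT2C libraries, 6 lay below control for POLE, 6 for POLA1, 5 for CLSPN and 8 for CDC45, and the rest above it. The 1 above it for CDC45 was SUIT2 KMT2C siRNA3, at 126% of control. Of the other members described above, the 9 KMT2C libraries had medians of 94.8% of control for CCND1 (70.5% to 135%), 149% for CCND3 (95.1% to 232%) and 99.3% for CCNE1 (80.9% to 152%). E2F1 had a median of 110% (72.0% to 124%) and E2F8 of 92.5% (65.7% to 112%). These 5 ranges all include 100%.

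For the licensing and helicase genes the KMT2C medians were 79.9% for CDC6 (61.1% to 95.3%), 98.5% for MCM5 (68.4% to 107%), 101% for MCM2 (85.3% to 122%) and 89.6% for GINS4 (72.3% to 123%). PCNA had a median of 71.1% (53.3% to 109%), RRM2 of 78.6% (59.4% to 97.7%) and TYMS of 106% (67.6% to 139%). CDC6 and RRM2 thus lay below control in all 9 KMT2C libraries. In all, 7 members did (CDC25A, ORC1, CDC6, PRIM1, RFC3, RRM1 and RRM2), as did 3.27% of all genes, and 0 members lay above control in all 9, as did 3.72% of all genes. Without the 3 libraries with over 20% of read pairs in no annotated feature, edgeR's count of called members was also 0, with 7 at an unadjusted p under 0.05.

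The direct comparison of KMT2C siRNA with KMT2D siRNA uses no control library, and 8 of 42 members were called, all higher with KMT2C siRNA. Over all genes 5.17% were called, 2.45% higher and 2.72% lower with KMT2C siRNA. The 8 were POLA1 (log2 fold change 1.04, SE 0.17, adjusted p = 0.00228 by edgeR), POLE (0.59, SE 0.097), CLSPN (0.77, SE 0.13), CDC45 (0.64, SE 0.13), E2F2 (0.71, SE 0.18), MCM5 (0.48, SE 0.12), E2F1 (0.57, SE 0.15) and POLA2 (0.48, SE 0.13), with adjusted p up to 0.0388. They include the activators E2F1 and E2F2, the helicase subunits CDC45 and MCM5 and the polymerase subunits POLA1, POLA2 and POLE. POLA1 had 72.7, 91.1 and 91.3 CPM in SUIT2 with KMT2C siRNA1, siRNA2 and siRNA3, against 22.8 and 55.4 CPM in its KMT2D libraries. It had 71.0, 78.0 and 71.3 CPM in COLO357 with KMT2C siRNA, against 34.1 and 49.6 CPM with KMT2D siRNA, and in PANC1 33.1, 48.8 and 40.7 CPM, against 13.7 and 21.8 CPM. The KMT2C and KMT2D libraries did not overlap in any line.

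POLE showed the same separation, with 110, 126 and 123 CPM in SUIT2 with KMT2C siRNA, against 70.2 and 88.3 CPM with KMT2D siRNA. In COLO357 it had 83.8, 82.3 and 91.6 CPM, against 63.2 and 61.8 CPM, and in PANC1 150, 149 and 145 CPM, against 89.9 and 91.3 CPM. Each KMT2C library lay above each KMT2D library of its line. CLSPN had 164, 151 and 203 CPM in SUIT2 with KMT2C siRNA, against 65.8 and 116 CPM with KMT2D siRNA. In COLO357 it had 141, 118 and 153 CPM, against 89.3 and 86.0 CPM, and in PANC1 223, 184 and 239 CPM, against 117 and 138 CPM. The median over all members was 0.17 higher with KMT2C siRNA, against -0.01 over all genes, with 33 of 42 above 0. Leaving out PANC1 KMT2D siRNA1 or COLO357 KMT2D siRNA2 left 5 calls, and POLA1, POLE, CLSPN and CDC45 were among the calls under every single library left out. The libraries repeat the same siRNAs across lines, and with each siRNA as a block (limma-voom) POLA1, POLE and CLSPN kept their calls while CDC45, E2F1, E2F2, MCM5 and POLA2 lost theirs.

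Each siRNA was then compared with control siRNA on its own, over 3 libraries against 3. With at least 1 of the 5 siRNAs, 22 of 42 members were called, against 15.9% of all genes. Of the 22, 13 were called with 2 siRNAs, 4 of them with both KMT2D siRNAs. The rest of the 13 were called with KMT2D siRNA2 and KMT2C siRNA2, which have different targets and the same controls. The share of all genes called with 2 siRNAs was not counted. KMT2D siRNA1 lowered 7 members and raised none, with 4.02% of all genes called, 2.18% lower and 1.84% higher. CCND1 fell by 1.70 (SE 0.18, adjusted p = 4.02e-06 by edgeR's quasi-likelihood test) and POLA1 by 1.53 (SE 0.17, adjusted p = 6.9e-06), followed by CLSPN (-0.96), CDC45 (-0.87), PRIM1 (-0.76), MCM5 (-0.75) and POLE (-0.74). CCND1 had 115 CPM in SUIT2 with KMT2D siRNA1, against 425 CPM with control siRNA. It had 647 CPM in COLO357, against 1588 CPM, and 143 CPM in PANC1, against 583 CPM. Every line thus kept 24.6% to 40.7% of its CCND1 RNA with this siRNA.

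KMT2D siRNA2 called 17 members, 16 lower and 1 higher, with 8.92% of all genes called, 4.94% lower and 3.98% higher. The 10 with the smallest p were all lower: CDC6 (-1.15, SE 0.17, adjusted p = 8.08e-05 by edgeR), MCM10 (-1.11, SE 0.17), PCNA (-0.99, SE 0.17), POLA2 (-0.79), E2F3 (-0.87), POLE (-0.64), CDC25A (-0.78), CDC45 (-0.75), POLA1 (-0.71) and CLSPN (-0.65). The 1 higher was CCND3 (0.61, SE 0.19, adjusted p = 0.0471). CDC6 had 61.9 CPM in SUIT2 with KMT2D siRNA2, against 112 CPM with control siRNA, 130 CPM in COLO357, against 237 CPM, and 47.1 CPM in PANC1, against 165 CPM. The fall was present in all 3 lines and deepest in PANC1. Without PANC1 KMT2D siRNA2 the count was 10. Both KMT2D siRNAs called POLE, POLA1, CLSPN and CDC45, which is 57.1% of the member calls of siRNA1 and 23.5% of those of siRNA2. The 2 sets share their control libraries, and the overlap of the calls over all genes was not counted.

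The 2 KMT2D siRNAs differed from each other in 8 members, against 11.3% of all genes (5.72% lower, 5.63% higher), in a comparison without control libraries. CCND1 was 1.52 higher with siRNA2 than with siRNA1 (SE 0.18, adjusted p = 4.76e-06 by edgeR) and POLA1 was 0.82 higher. E2F3 was 1.17 lower with siRNA2 (log2 fold change -1.17, adjusted p = 0.000176), and PCNA (-0.79), CDC6 (-0.72), MCM10 (-0.61), CDC25A (-0.63) and CCNE2 (-0.93) were lower too. CCND1 had 378 CPM in SUIT2 with KMT2D siRNA2, against 115 CPM with siRNA1, 1552 CPM in COLO357, against 647 CPM, and 460 CPM in PANC1, against 143 CPM. E2F3 had 18.2 CPM in SUIT2 with siRNA2, against 35.6 CPM with siRNA1, 17.6 CPM in COLO357, against 43.2 CPM, and 28.3 CPM in PANC1, against 70.0 CPM. The order of the siRNAs was the same in all 3 lines for both genes, and opposite between the 2 genes. Without PANC1 KMT2D siRNA2, 4 of the 8 were called (CCND1, POLA1, E2F3 and PCNA).

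**Figure D4:**
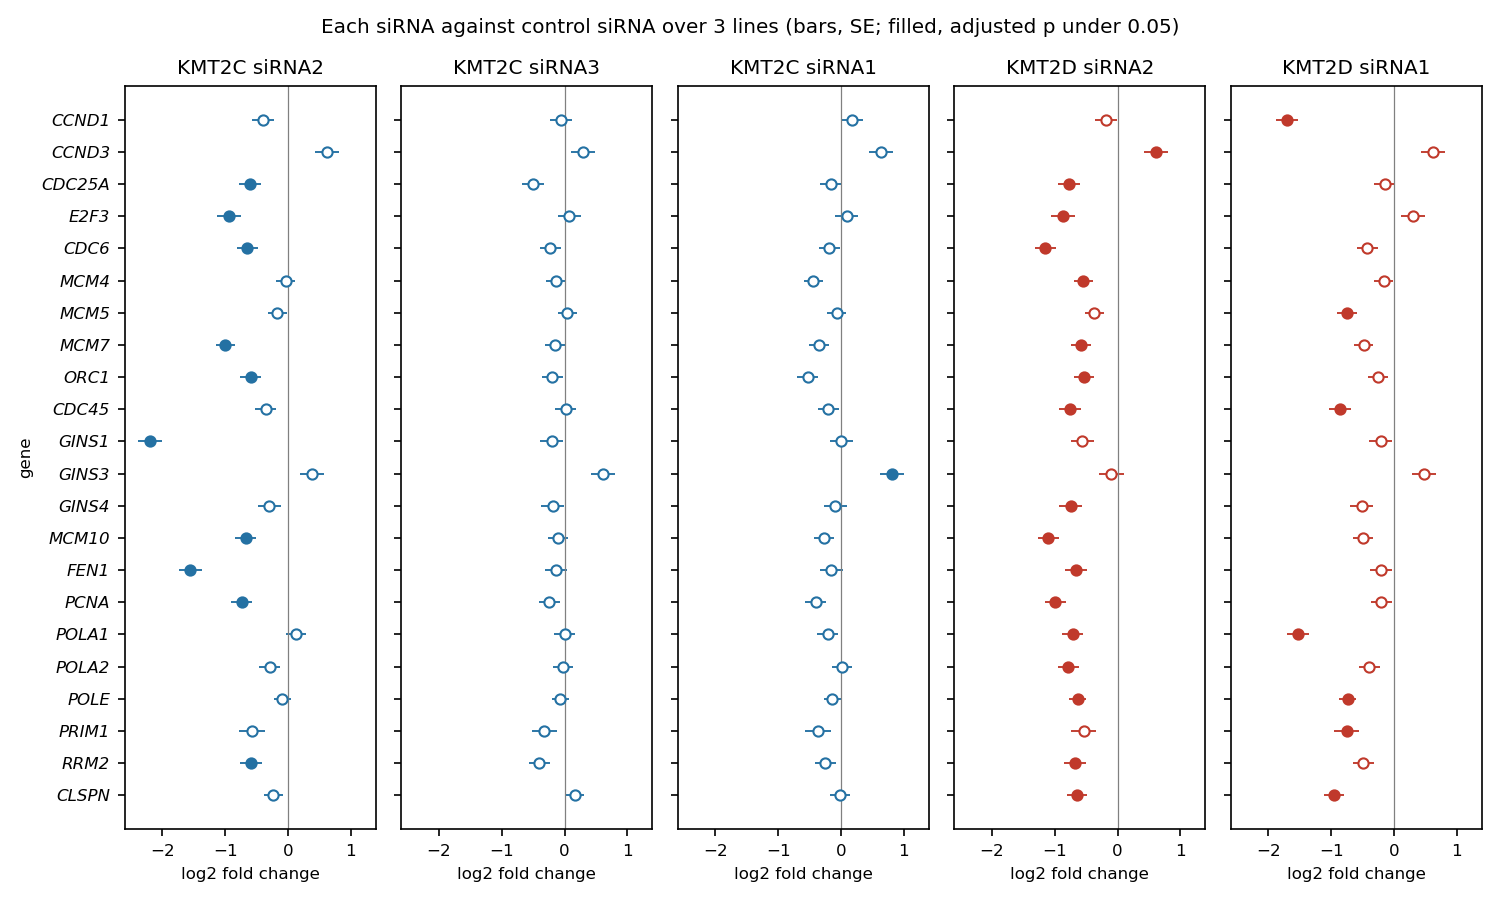
Log2 fold change (points) with SE (bars) of each siRNA against control siRNA over the 3 lines, for the 22 members called with at least 1 siRNA, with KMT2C siRNA2, siRNA3 and siRNA1 and KMT2D siRNA2 and siRNA1 from left to right and filled points for an adjusted p under 0.05. GINS1 and FEN1 are far below 0 with KMT2C siRNA2, and CCND1 and POLA1 with KMT2D siRNA1.

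KMT2C siRNA2 lowered 10 members, with 5.81% of all genes called, 3.14% lower and 2.67% higher. GINS1 fell by 2.20 (SE 0.20, adjusted p = 1.62e-07 by edgeR) and FEN1 by 1.55 (SE 0.18, adjusted p = 6.81e-06), followed by MCM7 (-0.996), E2F3 (-0.94), PCNA (-0.74), MCM10 (-0.67), CDC6 (-0.65), ORC1 (-0.60), CDC25A (-0.60) and RRM2 (-0.59). GINS1 (ENSG00000101003) had 8.40 CPM in SUIT2 with KMT2C siRNA2, against 38.5 CPM with control siRNA. It had 13.0 CPM in COLO357, against 45.0 CPM, and 20.6 CPM in PANC1, against 130 CPM. Its RNA was thus at 15.9% to 28.98% of control in all 3 lines, while with KMT2C siRNA3 and siRNA1 it was at 74.0% to 114%. FEN1 (ENSG00000168496) had 48.7 CPM in SUIT2 with KMT2C siRNA2, against 155 CPM, 104 CPM in COLO357, against 195 CPM, and 40.1 CPM in PANC1, against 181 CPM. Both genes kept their call without SUIT2 KMT2C siRNA2 or the library labelled PANC1 KMT2C siRNA2, and the count of 10 was 5 without SUIT2 KMT2C siRNA2 or the PANC1 control, and 6 without COLO357 KMT2C siRNA2 or the SUIT2 control.

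KMT2C siRNA1 called GINS3 alone, which was higher (0.81, SE 0.19, adjusted p = 0.0307 by edgeR), with 1.2% of all genes called, 0.504% lower and 0.694% higher. GINS3 had 29.5 CPM in SUIT2 with KMT2C siRNA1, against 14.4 CPM with control siRNA, 27.4 CPM in COLO357, against 17.8 CPM, and 13.7 CPM in PANC1, against 8.10 CPM. The call was absent without any 1 of the 3 control libraries, without PANC1 KMT2C siRNA1 and without SUIT2 KMT2C siRNA1. KMT2C siRNA3 called 0 members by edgeR, with 0.623% of all genes called (0.143% lower, 0.48% higher), 4 of 42 members at an unadjusted p under 0.05, beside 2213 of all 21028 genes, and 1 member called by DESeq2. The 3 KMT2C siRNAs differed among themselves in 4 members, against 4.51% of all genes: GINS1 (adjusted p = 3.88e-07 by edgeR), FEN1 (3.41e-05), E2F3 (0.00182) and MCM7 (0.00409). With siRNA2 over siRNA1 the log2 fold changes of these 4 were -2.20, -1.40, -1.03 and -0.64, and with siRNA3 over siRNA1 they were -0.21, 0.01, -0.01 and 0.21.

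The effect of either target was also compared between the lines. For KMT2D siRNA and for KMT2C siRNA, edgeR's test called 0 of 42 members and 0 of 21028 genes (0% of all genes), with 0 members at an unadjusted p under 0.05 in either case, against 475 and 469 of all genes. DESeq2 called 4 and 3 genes of all and 0 members. Each line had 1 control library, which limits what this comparison can detect. The smallest p among members was 0.0693 (PRIM1) for KMT2D siRNA and 0.0765 (CCND3) for KMT2C siRNA. The log2 change of CCND3 with KMT2C siRNA was 1.01 higher in COLO357 than in PANC1, and that of PRIM1 with KMT2D siRNA was 0.92 higher, each against 1 control library a line.

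The levels of the members were also compared between the lines, where most of all genes tested were called. In COLO357 against PANC1, 34 members were called, 21 higher and 13 lower, with 66.8% of all genes called (34.7% higher, 32.1% lower). In SUIT2 against PANC1, 24 were called, 11 higher and 13 lower, with 59.3% of all genes (29.5% higher, 29.8% lower), and in SUIT2 against COLO357 22, 6 higher and 16 lower, with 59.7% (28.8% higher, 30.9% lower). The members' median differences were 0.38, -0.21 and -0.23. CCNE1, CDT1, E2F2, E2F7, GINS2, POLA2 and RRM2 were called in all 3 comparisons, 27 members in 2 and 5 in 1. CCNE2, FEN1 and PRIM1 were called in none. The shares of all genes called in 3, 2 or 1 of these comparisons were not counted.

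GINS4, a GINS subunit, had the smallest p of the members in both comparisons with PANC1. It averaged 28.3 ± 6.33 CPM in SUIT2, 32.0 ± 4.86 in COLO357 and 10.2 ± 2.66 in PANC1 (SD, n = 6 libraries each, all siRNA groups together), with log2 fold changes of 1.67 for COLO357 over PANC1 and 1.48 for SUIT2 over PANC1. E2F2 averaged 5.38 ± 1.11 CPM in SUIT2, 22.8 ± 7.11 in COLO357 and 9.45 ± 4.43 in PANC1, and it had the smallest p in SUIT2 against COLO357 (-2.01, adjusted p = 8.58e-09 by edgeR). CCNE1 averaged 6.51 ± 1.47 CPM in SUIT2, 21.7 ± 3.55 in COLO357 and 13.6 ± 2.88 in PANC1, and CCND1 369 ± 151 in SUIT2, 1298 ± 362 in COLO357 and 486 ± 181 in PANC1. Both cyclins were thus highest in COLO357. The next in order of p were LIG1, E2F2, RRM1, GINS2, POLE, GINS3, MCM4, POLA1 and CDC45 for COLO357 over PANC1 (log2 fold changes of 1.09, 1.31, -0.99, 0.84, -0.66, 1.02, 0.80, 1.01 and 0.76). For SUIT2 over PANC1 they were GINS2 (1.14), POLA2 (-1.01), CDT1 (1.07), RRM1 (-0.95), POLA1 (1.06), CCNE1 (-1.05), RRM2 (-0.78), CCND3 (0.83) and PCNA (-0.91). For SUIT2 over COLO357 they were CCNE1 (-1.73), E2F7 (1.51), POLD1 (-1.01), PCNA (-1.24), CDC6 (-1.18), LIG1 (-0.84), CCND1 (-1.86), E2F8 (0.85) and TK1 (-0.69).

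Per length, in CPM per kb of annotated exon averaged over all libraries, CCND1 was the most abundant member at 149, followed by PCNA at 127, RRM2 at 90.04, MCM7 at 81.3, MCM3 at 64.2 and MCM4 at 58.9. The licensing ring was not even: MCM2 had 34.1, MCM6 29.9 and MCM5 13.6 CPM per kb. E2F2 was the least abundant at 2.30 CPM per kb, below CCNE2 at 3.18 and GINS3 at 3.44.

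**Figure D5:**
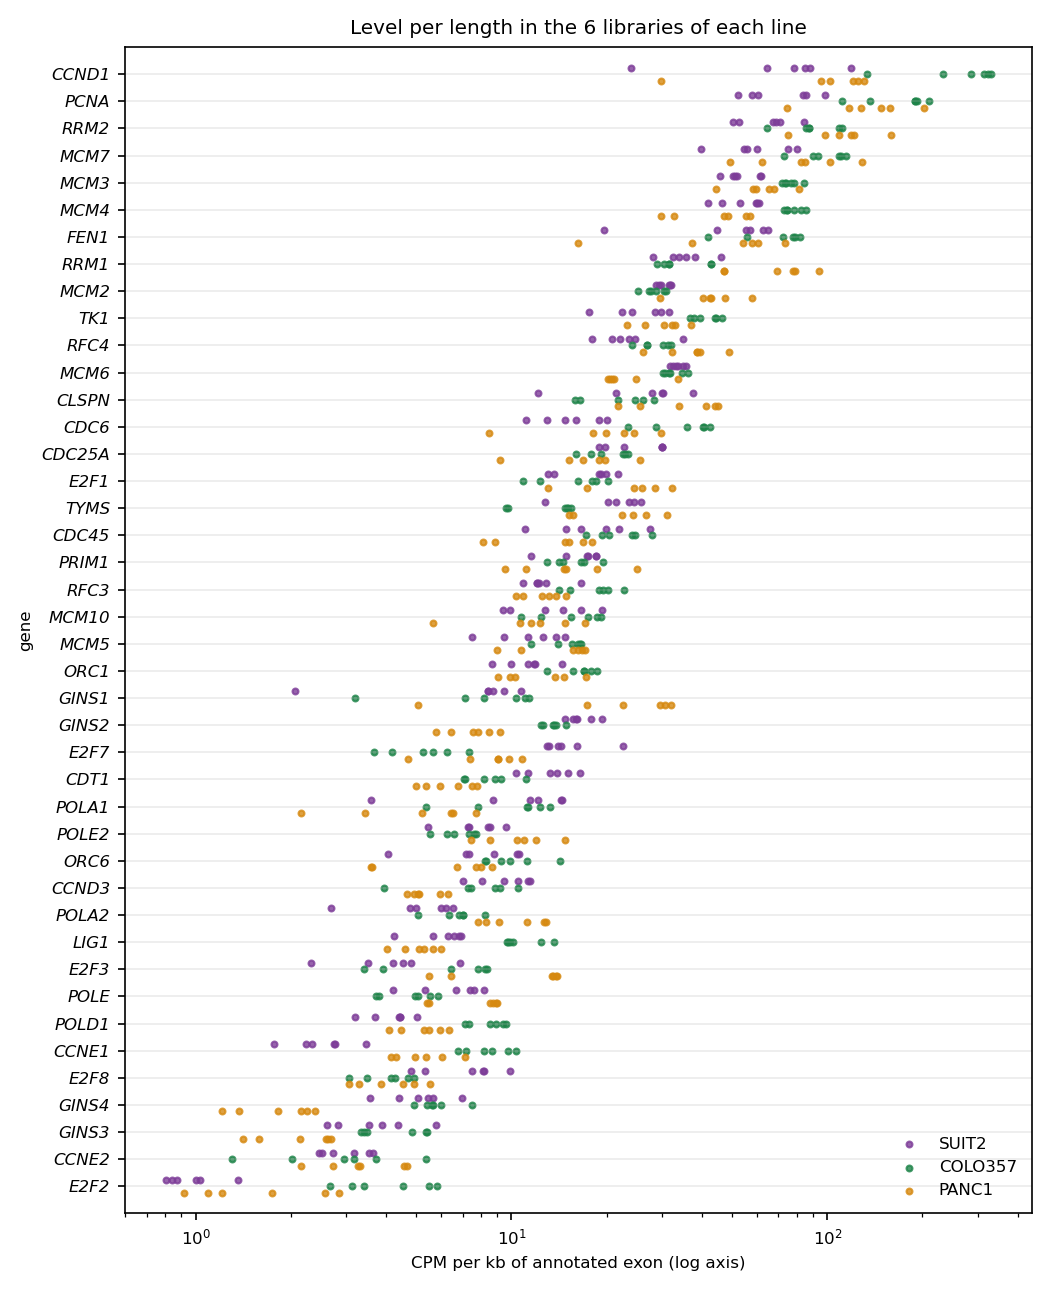
Level per length (CPM per kb of annotated exon, log axis) of the 42 members in the 6 libraries of SUIT2, COLO357 and PANC1, all siRNA groups together, ordered by mean level. CCND1 (mean 149) is at the top and E2F2 (mean 2.30) at the bottom, and GINS4 is apart in PANC1.

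A further 100 genes of the same pathway that were not members, such as other cyclins and CDKs, retinoblastoma proteins, licensing and fork factors and S phase checkpoint genes, were read from the same fits. Of these, 99 were tested. With KMT2D siRNA against control siRNA, 3 were lower and 1 higher by edgeR's test, beside the 1.2% of all genes called. Among those lower, EXO1, an exonuclease of DNA repair, fell by 1.14 (adjusted p = 0.00179) and CDC25B, a CDK phosphatase, by 0.75 (adjusted p = 0.0116). CDKN1B, which encodes the CDK inhibitor p27, was 0.89 higher (adjusted p = 0.0339). CDKN1B had 141 (siRNA1) and 176 CPM (siRNA2) in the KMT2D libraries of SUIT2, against 61.8 CPM with control siRNA, 54.6 and 66.4 CPM in COLO357, against 36.6 CPM, and 61.3 and 103 CPM in PANC1, against 52.7 CPM. All 6 KMT2D libraries were above their control. So were all 9 KMT2C libraries, at 104% to 227% of the same control libraries (median 132%), without a call for KMT2C siRNA against control siRNA. The list's median was -0.20 with KMT2D siRNA, with 69 of 99 below 0, beside 10102 of all 21028 genes. In KMT2C siRNA against KMT2D siRNA, 10 of 99 were called, beside 5.17% of all genes (2.45% higher, 2.72% lower). Among the 10, CDC25B (0.96), CDKN1A (0.82), EXO1 (0.70), MYBL2 (0.60), CHAF1B (0.53), CHAF1A (0.49) and RFC5 (0.46) were higher with KMT2C siRNA. DTYMK (-0.46) and FBXW7 (-0.43) were lower with it. With KMT2C siRNA against control siRNA the median was -0.14, and 78 of 99 lay below 0, beside 10422 of all 21028 genes. By edgeR 0 were called, beside 0.281% of all genes, with 10 at an unadjusted p under 0.05, and DESeq2 called 1.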

How the data were processed

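Raw read-pair counts per Ensembl gene, as deposited by the authors in 1 table per library, were used for 18 libraries. Per the labels' protocols, ribosomal RNA was depleted from total RNA and stranded libraries were sequenced as paired ends in 7 pools. The sources used here do not give the pool of a library, and no batch term was fitted. FastQC, TopHat2, HTSeq and edgeR are named with hg19, per the submitters' processing notes, and the annotation release and strand setting are unstated. Entries that name no gene made up 32.98% to 53.39% of read pairs and stayed out of library sizes and tests.

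Symbols, exon lengths and overlaps came from GENCODE v29, an annotation of GRCh38, by identifier. The main test was edgeR 4.0.16 (R 4.3.3; limma 3.58.1), a robust quasi-likelihood F test with TMM factors and the edgeR expression filter (minimum count 10, minimum total 15). The threshold for a call was 0.05 after Benjamini-Hochberg adjustment over 21028 genes. All 18 libraries entered each fit. Target plus line gave the comparisons of targets and lines (13 residual degrees of freedom), siRNA plus line those of siRNAs (10), and 9 groups of line by target the differences between lines (9), a fit that takes the spread of a lone control library from the other groups. CPM used TMM-scaled library sizes, library log2 changes a prior count of 2, and each SE is the size of the log2 fold change divided by the root of its F statistic.

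The fit was tested on simulated data, with 200 genes among 20261 changed in KMT2D siRNA against control siRNA. Of these, edgeR recovered 54% at 2-fold and 69% at 4-fold, and 14 of its 137 calls were of unchanged genes. Each library was simulated independently, without an effect shared by the libraries of an siRNA across lines. Recovery and false calls with such an effect were not tested. Alternatives were DESeq2 1.42.0, RLE factors, other filters, fewer libraries and an siRNA block. No pair of libraries of a group agreed within sampling noise (chi-square per gene 26.9 to 143). The members, the lists and the rule for named genes were chosen with earlier results of these data known. By that rule, values in every library were given for members called against control, for the 2 of each role with the smallest p under KMT2D siRNA and for CCND1, CCNE1, E2F1, MCM2 and PCNA, and members called elsewhere were named up to 10 per comparison by p. E2F2 and GINS3 levels under KMT2C siRNA, and those of GINS1, FEN1, E2F3 and CDKN1B, were chosen after their values were seen. Results of some genes on the marker and pathway lists are not reported here.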

Additional observations from a re-analysis of the deposited data

Results flagged for a closer look

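In 9 of 84 groups of member values (42 members in the KMT2D libraries and in the KMT2C libraries), 1 library stood apart from the others of its group by the gap to its nearest neighbour. Chance flags about 1 in 20 groups. Values are log2 changes against the same line's control.

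In the KMT2D libraries, POLE in SUIT2 with siRNA1 was at -0.95, with the other 5 libraries between -0.66 and -0.62. MCM2 in PANC1 with siRNA2 was at -0.68, with the others between -0.16 and 0.02. E2F8 in SUIT2 with siRNA2 was at 0.28, with the others between -0.75 and -0.42, and RFC3 in COLO357 with siRNA1 was at 0.16, with the others between -0.52 and -0.40.

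In the KMT2C libraries, MCM6 in the library labelled PANC1 KMT2C siRNA2 was at 0.68, with the other 8 between -0.20 and 0.23, and TYMS in that library was at -0.56, with the others between -0.02 and 0.47. MCM5 in SUIT2 with siRNA2 was at -0.55, with the others between -0.14 and 0.09. CDC45 in SUIT2 with siRNA3 was at 0.33, with the others between -0.45 and -0.10, and RRM1 in PANC1 with siRNA1 was at -1.002, with the others between -0.56 and -0.17. MCM5 in SUIT2 with KMT2C siRNA2 and CDC45 in SUIT2 with KMT2C siRNA3 came from libraries with over 20% of read pairs in no annotated feature.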

How the results depend on the processing

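Against 4 members called with KMT2D siRNA over control siRNA, DESeq2 called 8, no filter 7 and a minimum count of 50 called 5, in each case with the 4 among them, while the fit on the libraries compared called 0 (18 at an unadjusted p under 0.05). Over all genes the counts were 253, with 597 by DESeq2, 657 without a filter, 84 with the block below and 53 on the libraries compared, and 59 with KMT2C siRNA, against 187, 270, 24 and 86. The other pathway genes numbered 4 with KMT2D siRNA, against 11 (DESeq2), 8 (no filter) and 1 (libraries compared), and 0 with KMT2C siRNA, against 1 (DESeq2) and 2 (no filter). KMT2C siRNA1 called 1 member, against 2 (DESeq2), 3 (no filter), 3 (libraries compared) and 0 without the 3 libraries with over 20% in no annotated feature. KMT2C siRNA2 called 10, against 5 without those 3 libraries, and KMT2C siRNA3 called 0, against 1 by DESeq2, by no filter and on the libraries compared. RLE factors left every count of members or other pathway genes within 1.5 times. The causes were not tested.

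With each siRNA as a replicate block (limma-voom, correlation 0.211), KMT2D siRNA over control siRNA called 2 members (POLE and POLA1), 2 of the other pathway genes, and KMT2C over KMT2D siRNA called 3 (POLA1, POLE and CLSPN). Over all genes KMT2C over KMT2D siRNA called 185 with the block, against 1087. The block moved no other count of members or other pathway genes past 1.5 times. Replicate numbers of KMT2C and KMT2D siRNAs mark different siRNAs. Deviations were taken from a fit of line and target, which by itself pulls such correlations below 0. Between lines, libraries with the same siRNA correlated at -0.05 to 0.11 (mean 0.03). Those with different siRNAs of the same target correlated at -0.34 to -0.035 (mean -0.17). Within a line, libraries of different targets correlated at -0.18 to -0.06 (mean -0.13) with the same number and at -0.25 to -0.10 (mean -0.16) with different numbers.

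Leaving out each library in turn gave 0 to 6 members for KMT2D over control siRNA, 0 to 0 for KMT2C over control siRNA and 5 to 9 for KMT2C over KMT2D siRNA. The other pathway genes numbered 2 to 9 with KMT2D siRNA and 0 to 0 with KMT2C siRNA. Single siRNAs called 5 to 9 (KMT2D siRNA1), 10 to 20 (KMT2D siRNA2), 0 to 3 (KMT2C siRNA1), 5 to 11 (KMT2C siRNA2) and 0 to 1 (KMT2C siRNA3). KMT2D siRNA2 over siRNA1 called 4 to 11 and the KMT2C siRNAs among themselves 3 to 4. The lines gave 30 to 34 (COLO357 over PANC1), 23 to 28 (SUIT2 over PANC1) and 20 to 24 (SUIT2 over COLO357), and differences of an effect between lines 0 to 0. Log2 fold changes near 0 changed sign: with KMT2C siRNA, CCND1 was 0.0156 without the 3 libraries, MCM2 was -0.0154 with no filter and -0.0012 with the block, and single libraries left out gave -0.0898 to 0.0139 for POLA1, -0.0763 to 0.0597 for CLSPN, -0.12 to 0.18 for CCNE1 and -0.0627 to 0.0595 for MCM2. With KMT2D siRNA, CCNE1 ran from -0.28 to 0.0212. Precision was limited by the 1 control library of each line; the lowest member count in a library was 66 (E2F2).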
